A study of Rattus norvegicus with 12 samples.

Results

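The genes described here encode the muscle actins and the muscle myosin light chains: Acta1, Acta2, Actc1 and Actg2 among the actins, and Mylpf, Myl1, Myl2, Myl3, Myl4 and Myl9 among the light chains. They were chosen by name, as the gene probes whose listed gene name equals a member, which gave 10 genes with 11 probes among 30367 gene probes on the array. Actg2 had 2 probes and every other member had 1. Signal was above the filter on dim probes for 10 of the 11 probes. The probe that missed it was that of Myl1, which was therefore not tested and is given by its values.

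Cerebellar cells of Sprague-Dawley rats at postnatal day 1, enriched for neurons and kept for 16 days in vitro (DIV), were measured on 12 one-colour arrays. There were 6 control cultures and 6 cultures that received 1 µM acetamiprid (ACE), a neonicotinoid insecticide, from day 2 onward. Both groups contained 0.001% dimethyl sulfoxide as the solvent, and both had medium with 1% fetal bovine serum for the first 8 days and none afterwards. A control and an ACE culture with the same replicate number came from the same lot of cells of a litter, so that the comparison of control versus ACE (CvA) was made within 6 pairs, and "control 1" and "ACE 1" below are the arrays of pair 1.

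Actins polymerise into the thin filaments of muscle and into the cytoskeleton of other cells. Acta1 is the actin of mature skeletal muscle, Actc1 that of the heart and of developing skeletal muscle, Acta2 that of vascular smooth muscle and of contractile cells such as pericytes and myofibroblasts, and Actg2 that of visceral smooth muscle. Myosin carries an essential and a regulatory light chain on each heavy chain. Mylpf (now named Myl11) is the regulatory and Myl1 the essential light chain of fast skeletal muscle, Myl2 and Myl3 are the regulatory and essential chains of the ventricle and of slow skeletal muscle, Myl4 is the essential chain of the atrium and of embryonic muscle, and Myl9 is a regulatory chain of smooth muscle and many non-muscle cells. Skeletal muscle is not a tissue of the cerebellum, whereas smooth muscle and pericytes belong to its vessels.

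The expected neural cell types were present on all arrays. Signal was well above background on all 12 arrays for 5 of 6 neuronal, 7 of 7 granule cell, 6 of 6 Purkinje cell, 7 of 7 astrocyte, 6 of 6 oligodendrocyte and 5 of 5 microglial markers on the array. The share of gene spots well above background ranged from 75.4% to 91.0% per array, the 75th percentile of the signal from 1803 to 4384 intensity units, and 0 spots were saturated. Precision is limited by having 6 arrays in a group.

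The probes are 60 bases long. Those of 4 members are shown because the values below turn on them. Mylpf, Myl1 and Myl4 shared a pattern over the arrays, which Myl9 followed only in part and over a far narrower range. They are written 5′ to 3′ with no base singled out.
Mylpf: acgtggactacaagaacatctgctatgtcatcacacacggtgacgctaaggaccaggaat
Myl1: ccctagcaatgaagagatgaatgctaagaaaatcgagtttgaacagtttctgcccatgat
Myl4: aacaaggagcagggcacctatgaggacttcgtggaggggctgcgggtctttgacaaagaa
Myl9: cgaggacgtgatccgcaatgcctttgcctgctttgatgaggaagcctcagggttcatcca

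Per the file headers the coordinates are of the rat build rn4. The Actc1 probe lies at chr3:99901091-99901150 on the minus strand and the Mylpf probe at chr1:186474405-186474464 on the plus strand. The Myl1 probe covers chr9:65719604-65722502 on the minus strand, a span of 2899 bases for 60 bases of probe, so that it crosses an intron, and the Myl9 probe likewise covers 484 bases at chr3:147192749-147193232 on the plus strand. The Myl4 probe has no position in the files. The probes of Actg2 overlap by 46 bases on chromosome 4 and are not independent measurements. No other pair of member probes shared a run of more than 10 bases on either strand. The position of a probe in an exon or untranslated region is not given in the sources used here.

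**Figure D1:**
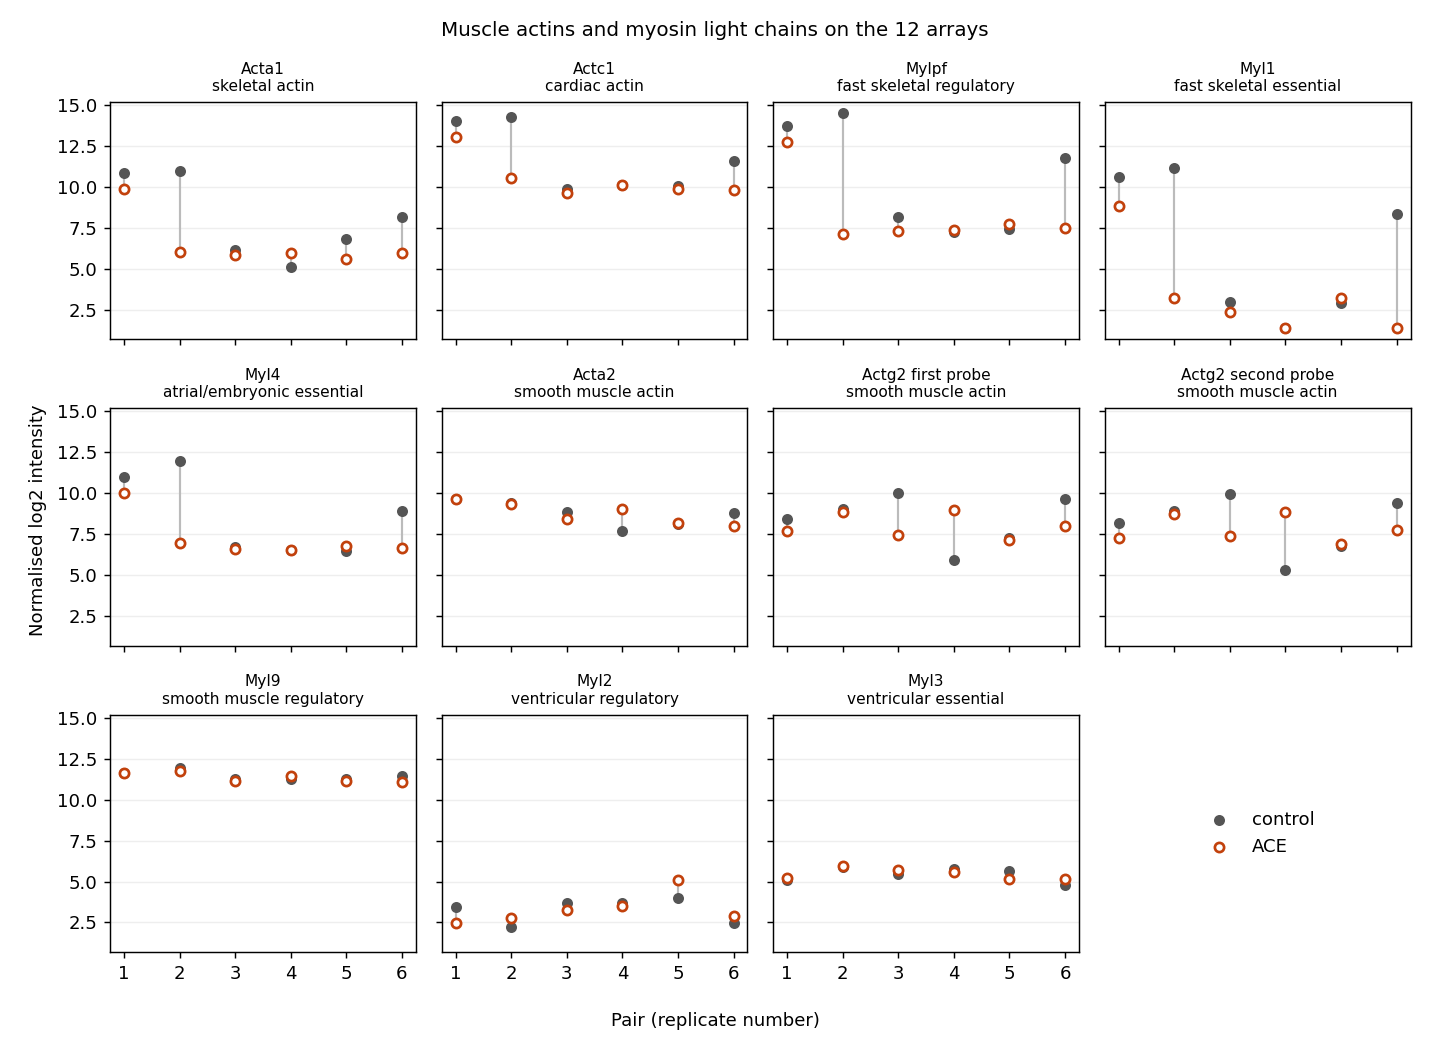
Normalised log2 intensity (vertical axis) of the 11 member probes in each pair (horizontal axis), with filled points for control arrays, open points for ACE arrays and a line joining the arrays of a pair. Acta1, Actc1, Mylpf, Myl1 and Myl4 are high on control 1, control 2, control 6 and ACE 1. Acta2 and Myl9, over a narrower range, are highest on control 1, control 2, ACE 1 and ACE 2. The Actg2 probes, Myl2 and Myl3 are not arranged in this way.

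Acta1, Actc1, Mylpf, Myl1 and Myl4, called the uneven set below, varied widely over the arrays. Mylpf, the fast regulatory light chain, had normalised log2 intensities of 13.73, 14.53, 8.18, 7.23, 7.40 and 11.74 on control 1 to 6 and of 12.75, 7.12, 7.31, 7.35, 7.71 and 7.50 on ACE 1 to 6. Control 1, control 2, control 6 and ACE 1 thus stood above the remaining 8 arrays, which lay between 7.12 and 8.18. In intensity units before normalisation, Mylpf was at 25120 on control 2 and at 149 on ACE 2, cultures of the same cell lot. Its range over the 12 arrays was 7.42 log2, and only 9 of the 23796 probes tested had a wider one.

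Myl1, the essential light chain that pairs with Mylpf in fast muscle, was well above background on control 1, control 2, control 6 and ACE 1 and on none of the other 8 arrays. Its log2 intensities on control 1 to 6 were 10.62, 11.13, 2.94, 1.39, 2.91 and 8.36, and on ACE 1 to 6 they were 8.85, 3.23, 2.37, 1.36, 3.20 and 1.40. On the 8 dim arrays the probe has no measured level. A stand-in was taken, the lowest signal among probes well above background or the probe's own signal where that was higher. Against this stand-in, ACE was 240-fold lower than control in pair 2, where the probe's own signal was used, and 12.8-fold lower in pair 6. The stand-in is not an upper limit for an undetected probe, so these folds are not lower limits. In pair 1, where both arrays were measured, ACE was 3.41-fold lower.

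Acta1, the skeletal muscle actin, followed the same arrays. Its log2 intensities were 10.83, 10.95, 6.14, 5.08, 6.80 and 8.13 on control 1 to 6 and 9.86, 6.00, 5.82, 5.98, 5.61 and 5.97 on ACE 1 to 6. The 4 highest arrays were again control 2, control 1, ACE 1 and control 6, and the lowest of all was control 4.

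Actc1, the cardiac actin that precedes Acta1 in developing skeletal muscle, had log2 intensities of 14.02, 14.24, 9.88, 10.10, 10.03 and 11.55 in control and 13.05, 10.52, 9.62, 10.09, 9.89 and 9.78 in ACE. Myl4, the atrial and embryonic essential light chain, had 10.97, 11.97, 6.74, 6.56, 6.48 and 8.94 in control and 9.99, 6.94, 6.59, 6.54, 6.77 and 6.64 in ACE. All 5 genes of the uneven set ranked control 2, control 1, ACE 1 and control 6 as their highest arrays, in that order. For each of them the control and the ACE arrays overlapped, because ACE 1 was high and control 3, 4 and 5 were low.

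Within pairs, Acta1, Actc1, Mylpf and Myl4 differed by similar amounts in pair 1, where Myl1 differed by more, and by unequal amounts in pairs 2 and 6. In pair 1 the ACE array was lower by 0.97 log2 for Acta1, Actc1 and Mylpf and by 0.98 for Myl4, and by 1.77 for Myl1. In pair 2 it was 171-fold lower for Mylpf, 32.7-fold for Myl4, 31.0-fold for Acta1 and 13.2-fold for Actc1. In pair 6 the corresponding values were 18.9-fold, 4.93-fold, 4.46-fold and 3.41-fold lower. Mylpf was 1.82-fold lower in pair 3 and Acta1 was 2.29-fold lower in pair 5, where Mylpf and Myl4 were 1.24-fold and 1.22-fold higher in ACE. Acta1 was 1.86-fold higher in ACE in pair 4, whereas Actc1 and Myl4 were level there, with differences of -0.01 and -0.02 log2.

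The CvA comparison asked whether the members differed between control and ACE cultures. By limma with the replicate block, 0 of the 9 member genes tested passed the adjusted threshold of 0.05, as did 0% of all probes tested, and 0 of 9 had an unadjusted limma p under 0.05, against 16.6% of all probes. The two-sided exact signed-rank test gave 1 of 9 under 0.05 unadjusted, Actc1, at the smallest p-value that 6 pairs allow. That value needs the same direction in 6 of 6 pairs, which 11.6% of all probes had, so that 1 of 9 is near the background. Actc1 was the only member that was lower in ACE in 6 of 6 pairs, as were 6.86% of all probes, while 4.72% were higher in all 6. In pair 4 this rests on a difference of -0.01 log2. Before normalisation the ACE array was the higher in pair 4, at 782 against 747 intensity units, and in pair 5, at 832 against 683.

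**Figure D2:**
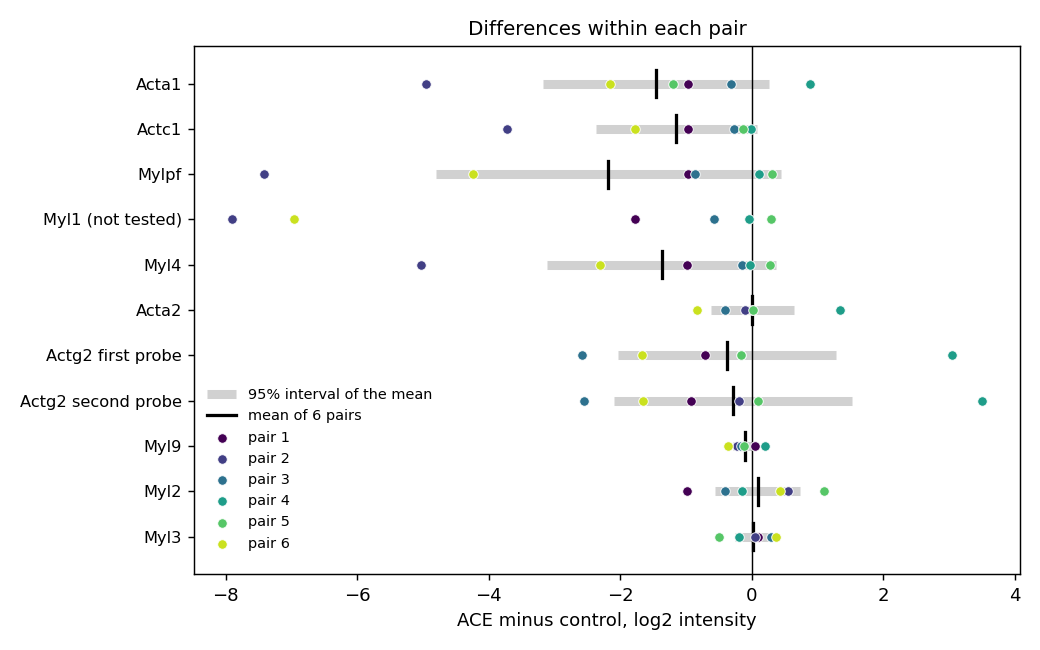
Difference between the ACE and the control array of a pair in log2 intensity (horizontal axis) for each member probe (vertical axis), with a point for each of the 6 pairs, a black bar for their mean and a grey band for the 95% interval of the mean from limma. Myl1 has neither bar nor band, since it was not tested and its points rest on dim arrays in all pairs but pair 1. Pair 2 and pair 6 lie far to the left for the uneven set, pair 4 lies far to the right for Actg2, and every interval drawn includes 0.

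The mean differences of Mylpf, Acta1, Myl4 and Actc1 were large and so were their errors. Mylpf averaged 10.47 ± 3.28 log2 over the control arrays and 8.29 ± 2.20 over the ACE arrays (SD, n = 6), and the difference was -2.18 ± 1.12 (SE; adjusted limma p 0.367). Acta1 was at 7.99 ± 2.46 and 6.54 ± 1.63, a difference of -1.45 ± 0.73 (adjusted limma p 0.361), and Myl4 at 8.61 ± 2.42 and 7.25 ± 1.35, a difference of -1.37 ± 0.75 (adjusted limma p 0.390). Actc1 was at 11.64 ± 2.02 and 10.49 ± 1.29, a difference of -1.14 ± 0.52 (adjusted limma p 0.325). These 4 members had a mean at least 1.5-fold lower in ACE, which 1.06% of all probes had. Their differences did not exceed the spread between pairs, and pair 2 carried much of the mean. Without replicate 2 the differences were -1.13 for Mylpf, -0.75 for Acta1, -0.63 for Myl4 and -0.63 for Actc1. In bulk cultures such as these, fewer cells of a type and less RNA per cell cannot be told apart.

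Counted within pairs, the number of member genes at least 1.5-fold lower in ACE differed between the culture experiments. In pair 1 there were 6 of 9, against 1.21% of all probes (Myl4, Myl2, Actg2, Mylpf, Acta1 and Actc1), and in pair 2 there were 4 of 9, against 1.87% (Myl4, Mylpf, Acta1 and Actc1). Pair 3 had 2 (Actg2 and Mylpf; background 2.00%), pair 4 had 0 (background 3.37%), pair 5 had 1 (Acta1; background 4.81%) and pair 6 had 6 (Myl4, Acta2, Actg2, Mylpf, Acta1 and Actc1; background 3.73%). In the other direction, Acta2, Actg2 and Acta1 were at least 1.5-fold higher in ACE in pair 4, against 3.71% of all probes, and Myl2 was in pair 5, against 3.14%, where control 5 was not well above background for Myl2. The pairs lay on separate slides, each with control at place 1 and ACE at place 3, so that place and exposure cannot be told apart. Pairs 4 to 6 shared a scan batch, and within it the mean differences were -1.27 for Mylpf, -0.82 for Acta1, -0.68 for Myl4 and -0.64 for Actc1, while every other scan batch held a single pair.

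The smooth muscle members differed in how far they followed the arrays of the uneven set. Control 1, control 2 and ACE 1 were also among the 4 highest arrays for Acta2 and Myl9, each time together with ACE 2, whereas Actg2 was highest on control 3. Acta2, the vascular smooth muscle actin, had log2 intensities of 9.63, 9.42, 8.84, 7.71, 8.15 and 8.82 on control 1 to 6 and of 9.63, 9.32, 8.44, 9.06, 8.17 and 8.00 on ACE 1 to 6. In pair 2, where the uneven set differed most, Acta2 differed by -0.10 log2. Its largest pair difference was in pair 4, where ACE was 2.55-fold higher. The mean difference was 0.01 ± 0.27 (SE), with a 95% interval from -0.62 to 0.64 and an adjusted limma p of 0.990.

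Actg2, the visceral smooth muscle actin, had the widest spread of the smooth muscle members. Its first probe was at 8.42, 9.02, 10.02, 5.93, 7.29 and 9.66 log2 on control 1 to 6 and at 7.70, 8.86, 7.44, 8.97, 7.12 and 7.99 on ACE 1 to 6. Control 4 was the lowest of the 12 arrays and control 3 the highest, both of them arrays on which Acta1 and Mylpf were low. ACE was 6.00-fold lower in pair 3 and 8.23-fold higher in pair 4. The second, overlapping probe gave 5.88-fold lower and 11.4-fold higher in these pairs. The mean differences were -0.37 ± 0.71 and -0.28 ± 0.77 (SE) for the probes, with adjusted limma p-values of 0.803 and 0.870, and they depended on pairs 3 and 4. Without replicate 3 they were 0.07 and 0.17, and without replicate 4 they were -1.06 and -1.04 (unadjusted limma p 0.0412 and 0.0480, adjusted 0.346 and 0.357).

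Myl9, the light chain through whose phosphorylation smooth muscle contraction is controlled, was even over the arrays. It ranged from 11.26 to 11.96 log2 in control and from 11.08 to 11.74 in ACE, and the median pair difference was -0.14. The mean difference was -0.10 ± 0.08 (SE), with a 95% interval from -0.28 to 0.08 and an adjusted limma p of 0.531. The range of Myl9 over all 12 arrays, 0.87 log2, was close to the median range of all probes, 0.92 log2.

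The light chains of the ventricle and of slow muscle were not arranged like the uneven set. Myl3, the ventricular essential chain, lay between 4.78 and 5.87 log2 in control and between 5.15 and 5.92 in ACE, with a difference of 0.02 ± 0.12 (SE; 95% interval from -0.26 to 0.30, adjusted limma p 0.941). Control 6, high for the uneven set, was the lowest array for Myl3. Myl2, the ventricular regulatory chain, exceeded background clearly on 2 control and 2 ACE arrays only, with log2 intensities from 2.22 to 3.98 in control and from 2.47 to 5.08 in ACE. Its fitted difference of 0.09 ± 0.28 (SE) therefore rests mostly on arrays without a measured level.

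**Figure D3:**
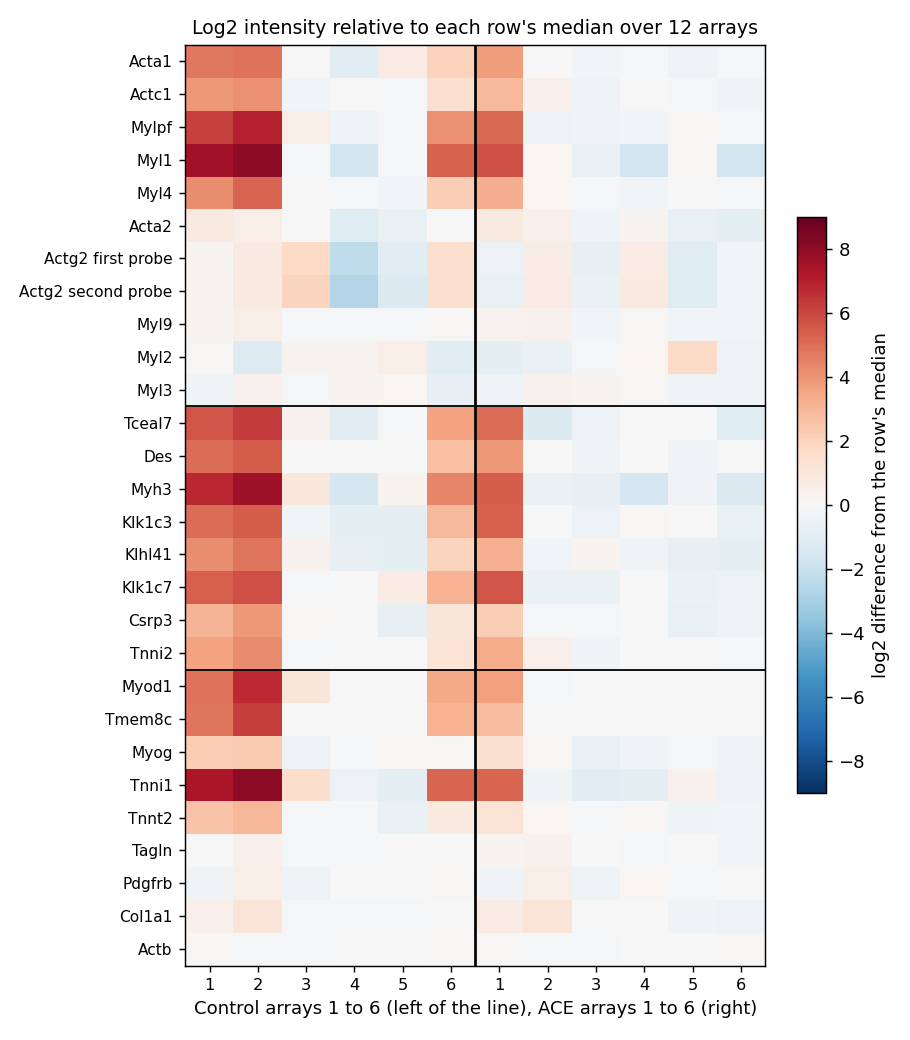
Log2 intensity of the 11 member probes (top block), of the 8 genes most like Mylpf (middle block) and of 9 genes from the marker lists chosen after their values were seen (bottom block), as the difference from each row's median over the 12 arrays, red for above and blue for below. Control 1, control 2, control 6 and ACE 1 are red for the uneven set and for all 8 genes of the middle block, and pale for Acta2, Myl9, Tagln, Pdgfrb and Actb.

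The likeness between members over the arrays was strongest within the uneven set. Over the 12 arrays the Pearson correlation was 0.958 to 0.988 for the 10 combinations among Acta1, Actc1, Mylpf, Myl1 and Myl4, and lower for all other combinations. Between these 5 genes and Acta2, Actg2 or Myl9 it was 0.235 to 0.799, with the lowest values for Actg2, which overlaps the 0.407 to 0.834 among the smooth muscle members. It was -0.314 to -0.147 between the uneven set and Myl3, and -0.550 to -0.508 between the uneven set and Myl2, which was dim on most arrays. These values are descriptions, and the uneven set was formed after the values were seen. The 12 arrays are 6 pairs that share cell lots, and for the uneven set they fall into separate clusters of high and low arrays. Of the members tested, Acta1, Actc1, Mylpf, Myl4 and Actg2 had a range of at least 4 log2 over the arrays, which 1.61% of all probes had.

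Acta2 was compared with Actg2 and with Myl9 within the control arrays, within the ACE arrays and over the pair differences, 6 relations with n = 6 each, by two-sided exact permutation. Over the pair differences Acta2 and Actg2 had a Pearson r of 0.936 (exact p 0.0181, adjusted 0.0361) and a Spearman rho of 0.886 (exact p 0.0333, adjusted 0.0667). Leaving out the pairs farthest from the median of Acta2 gave an r of 0.910. Acta2 and Myl9 had an r of 0.953 within the ACE arrays (exact p 0.0181, adjusted 0.0361, and 0.960 without the 2 farthest) with a rho of 0.886 (adjusted exact p 0.0667). Over the pair differences their r was 0.899 (exact p 0.0125, adjusted 0.0361) and their rho 0.886 (adjusted exact p 0.0667), but r was 0.418 without the 2 farthest pairs, so that this relation rests on pairs 4 and 6. The other 3 relations, with r from 0.449 to 0.756, had adjusted exact p-values from 0.125 to 0.350. Without the 2 farthest arrays, Acta2 and Actg2 within the ACE arrays went from 0.449 to 0.968, and the others were 0.649 and 0.846 within the control arrays. The arrays of pairs 4 to 6 are too few for a value within their scan batch.

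**Figure D4:**
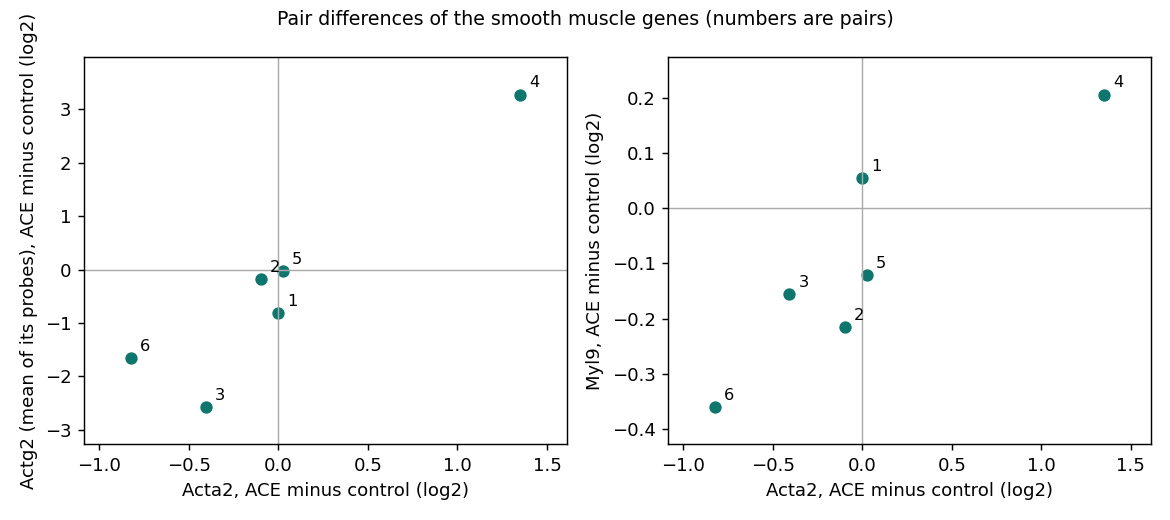
Pair differences, ACE minus control in log2 intensity, of Acta2 (horizontal axes) against Actg2 (left, its probes averaged) and Myl9 (right), with a point for each of the 6 pairs numbered by pair. Pair 4 lies at the upper right and pairs 3 and 6 at the lower left in the left panel, and the right panel has pair 4 and pair 6 at its ends.

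Among 17450 genes compared that were no members, the 8 most like Mylpf over the 12 arrays were Tceal7, Des, Myh3, Klk1c3, Klhl41, Klk1c7, Csrp3 and Tnni2, with r from 0.962 to 0.992. Tnni2 was well above background on all 12 arrays and the other 7 on 6 to 10, so that their low values are in part without a measured level. Des encodes desmin, the intermediate filament of muscle, Myh3 the embryonic myosin heavy chain, Klhl41 a sarcomere protein of skeletal muscle, Csrp3 the muscle LIM protein and Tnni2 the fast skeletal inhibitory troponin, while Klk1c3 and Klk1c7 are kallikreins. Des was at 9.55, 9.95, 4.43, 4.52, 4.51 and 7.23 log2 on control 1 to 6 and at 8.40, 4.48, 4.20, 4.50, 4.18 and 4.45 on ACE 1 to 6. Myh3 was at 12.66, 13.54, 6.95, 4.40, 6.19 and 10.26 in control and at 11.31, 5.31, 5.19, 4.38, 5.61 and 4.57 in ACE. Control 4 and ACE 6 were not well above background for either gene. Both had the same high arrays as Mylpf. In pair 1 the kallikreins differed in sign from the muscle genes, with Klk1c3 0.33 and Klk1c7 0.24 log2 higher in ACE. The 5 genes most like Acta2 were Emr4, Gpihbp1, a transcript without a symbol, Ncmap and Nupr1, with r from 0.935 to 0.973. Only Nupr1, a stress-induced nuclear protein, was well above background on all 12 arrays, and it was 1.14 log2 higher in ACE in pair 4. The other 4 were so on 8, 6, 7 and 4 arrays, and their place in this order rests in part on arrays without a measured level.

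The other sarcomere and skeletal muscle genes were lower in the same pairs as the uneven set. Of 38 listed, 37 were on the array and 32 were tested. In the mean, 30 were lower and 2 higher in ACE, with a median difference of -0.49 log2 against -0.01 for all probes, and 14 were at least 1.5-fold lower, against 1.06% of all probes. By limma 0 passed the adjusted threshold, and 9 were lower and 1 higher at an unadjusted p under 0.05, against 16.6% of all probes. The same 4 highest arrays as for Mylpf were found for 10 of the 32 genes (31.2%), against 1.21% of 17586 genes tested. The list includes Lmod2, Lmod3, Unc45b, Mb, Tnni2 and Cacng1, which the study had already reported as lower in ACE in these data. Its excess of lower genes over the background is therefore in part fixed in advance. The list's median difference by pair was -0.46, -1.58, -0.03, 0.02, -0.21 and -0.73 log2 for pairs 1 to 6, so that pairs 2 and 6 again were lowest. Its summed signal ran from 38688 to 129669 intensity units in control and from 43695 to 86148 in ACE. Myh8, the brightest gene of the list on every array, weighs most in this sum, which does not follow the uneven set. The highest ACE sum was on ACE 2, where the uneven set was low, and ACE 1 was at 58641. Signal was well above background on all arrays for 21 of the 37 genes. Not every sarcomere gene followed. Myh8, the perinatal heavy chain, lay between 14.51 and 16.05 log2 on the 12 arrays, Tpm1 between 12.51 and 13.17, and Tpm3 between 10.68 and 10.85.

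**Figure D5:**
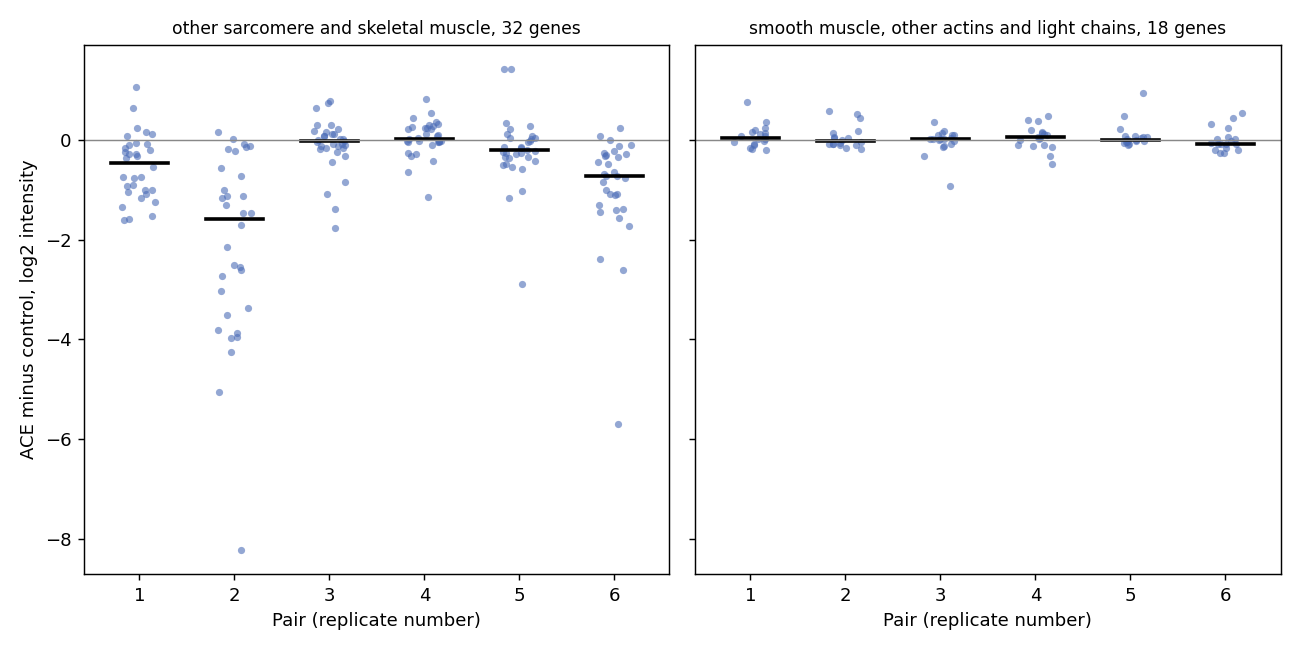
Difference between the ACE and the control array of each pair in log2 intensity (vertical axis) for the 32 other sarcomere and skeletal muscle genes tested (left) and for 18 smooth muscle, other actin and light chain genes (right), a point per gene and a black bar for the median. The left panel is shifted down in pairs 1, 2 and 6, with medians of -0.46, -1.58 and -0.73, and the right panel is centred near 0 in all pairs.

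Of the genes that commit cells to skeletal muscle, Myod1 and Tmem8c were seen on the same arrays as the uneven set. Myod1, the master regulator of the myogenic lineage, was well above background on only 4 arrays, where its log2 intensities were 6.29 (control 1), 8.11 (control 2), 4.87 (control 6) and 5.10 (ACE 1), and it was at 1.35 to 2.52 elsewhere. Tmem8c, the membrane protein myomaker that myoblasts need to fuse, was likewise well above background on 4 arrays, at 6.10, 7.52, 4.45 and 4.11 on these, and at 1.28 to 1.32 elsewhere. Myog, which drives terminal differentiation, was highest on control 2, control 1 and ACE 1 (8.60, 8.47 and 7.56), whereas Myf6 was not well above background on any array. Of 9 myogenic regulators on the array, 5 were tested, with a median difference of -0.09 log2. At an unadjusted limma p under 0.05, 2 were lower and 1 was higher, against 16.6% of all probes. Myod1 and Tmem8c were not tested, and 0 of the 5 tested had the same 4 highest arrays as Mylpf. Among these 5, Myf5 was highest on control 1 and ACE 1, at 7.88 on both. Mef2c was lowest on control 1, at 10.12, and Pax3 was highest on control 5. Whether the number of muscle cells in a culture sets the values of the uneven set was not tested.

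The actins and light chains that most cells use varied little over the arrays. Actb and Actg1, the cytoplasmic actins, ranged from 16.38 to 16.68 and from 16.62 to 16.89 log2 over the 12 arrays, and Myl6, the non-muscle essential light chain, from 17.23 to 17.55. Of 11 other actins, light chains and light chain kinase or phosphatase genes tested, 5 were lower and 6 higher in ACE, with a median of 0.02 log2, and 1 had an unadjusted limma p under 0.05. For this list and those that follow, the share of all probes under that p was 16.6%. Myl12b, a non-muscle regulatory light chain, had the same 4 highest arrays as Mylpf, but its values spanned only 12.20 to 12.65 log2. The 7 smooth muscle genes tested, among them Tagln and Myh11, had a median of 0.09 log2 with 3 lower and 4 higher, and 0 at an unadjusted limma p under 0.05. Their summed signal was 9814 to 14730 intensity units in control and 8917 to 14061 in ACE. The 7 pericyte genes had a median of 0.04 log2, which was -0.04 with dim probes of the same genes averaged in (chosen after seeing the data), and 1 was lower at an unadjusted limma p under 0.05. The 7 cardiac genes had a median of -0.07 with 6 lower and 1 higher, and 1 in each direction had an unadjusted limma p under 0.05. Among them Tnnt2, a troponin of the heart and of embryonic skeletal muscle, was 10.41, 10.85 and 8.78 log2 on control 1, 2 and 6 and 9.14 on ACE 1, against 7.26 to 8.08 elsewhere.

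The lists for the remaining cell types had small median differences, namely -0.17 log2 for 4 endothelial genes, 0.02 for 8 meningeal fibroblast genes, 0.10 for 6 neuronal, -0.06 for 7 granule cell, -0.11 for 6 Purkinje cell, -0.07 for 7 astrocyte, 0.00 for 6 oligodendrocyte and 0.13 for 5 microglial genes. At an unadjusted limma p under 0.05 there was 1 endothelial gene (lower), 1 neuronal (higher), 1 granule cell (higher), 2 Purkinje cell (lower), 1 astrocyte (lower), 3 oligodendrocyte (1 lower and 2 higher) and 4 microglial genes (1 lower and 3 higher), and 0 fibroblast genes, against 16.6% of all probes. By limma 0 passed the adjusted threshold. None of these genes was at least 1.5-fold lower or higher in the mean, and 0 had the same 4 highest arrays as Mylpf.

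Since the uneven set moved together, the bases before their start sites were searched for short motifs of muscle promoters. RefSeq windows of the build GRCr8 (250 bases before to 50 after the start) were at hand for 8 of the 10 members, with Mylpf under the name Myl11, and not for Myl2 and Myl9. The CArG box, the sequence bound by serum response factor, was searched in the strict form CCWWWWWWGG only, with W for A or T. In this form it was present in Acta1, Myl3 and Actc1, against 1.64% of 33469 windows, and in Actc1 it lay after the start. The last 120 bases before the start of Acta1 (chr19:68784195-68784314, minus strand) and of Myl3 (chr8:119616974-119617093, plus strand) are shown with the CArG box in capitals, the first from the uneven set and the second from a gene that was flat.
Acta1: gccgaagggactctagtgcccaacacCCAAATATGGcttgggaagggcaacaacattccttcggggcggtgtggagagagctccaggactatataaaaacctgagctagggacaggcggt
Myl3: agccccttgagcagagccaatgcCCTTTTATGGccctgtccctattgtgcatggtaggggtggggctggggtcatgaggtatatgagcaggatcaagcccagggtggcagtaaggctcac

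In the Acta1 window the CArG box began at base -94, the letters CATTCC, part of the site of the TEAD factors, at -67 (14.2% of all windows hold them) and TATAAA at -29 (14.2%), all on the strand of the gene. In the Myl3 window the CArG box began at -97 and CATTCC was found at -189 on the opposite strand and at -161. CATTCC was also found in Acta2, at -196 on the opposite strand, and TATAAA in Myl4, at -91 on the opposite strand. The E-box letters CAGCTG, a form of CANNTG that myogenic regulators bind, were found on either strand in Acta1, Acta2, Myl11 and Myl4, against 15.1% of all windows, and the wider CANNTG in 7 of the 8 windows, against 72.1%. The strict form of the CArG box was thus found in members of the uneven set and in Myl3. It was not in the windows of Mylpf, Myl1, Myl4, Acta2 and Actg2. Forms with a G or C among the middle bases were not searched for, so these windows may still hold a CArG box.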

How the data were processed

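Total RNA of 12 cultures was hybridised to 1-colour Agilent whole rat arrays. Per the file headers, the authors obtained the intensity of each spot by Agilent Feature Extraction (release 11.0.1.1 in pair 1 and release 11.5.1.1 in the other pairs), which subtracts background but does not scale arrays to each other. Log2 values were deposited too, quantile normalised and centred per probe, which correlated at 0.997 to 0.999 with those computed here and served as an alternative.

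Processed intensities were put on the log2 scale and quantile normalised here, control spots were left out and outlier spots set to missing (447 values). Probes were tested if they exceeded percentile 20 of the array's signal in 7 or more of the 12 arrays, after the study's own filter, and had 4 or more complete pairs, leaving 23796 of 30367 probes. CvA was fitted on all of these with limma 3.58.1 in R 4.3.3 (files read with data.table, version 1.17.8) with replicate as a block, two-sided, Benjamini-Hochberg at 0.05. The study's paired rank test was run as an exact signed-rank test. The pairing follows the study's cell lots. Same-numbered arrays deviated from their group means with correlations of 0.449 to 0.912, against -0.439 to 0.390 for other numbers. Cultures of different pairs were separate experiments, so the p-values measure the spread between those experiments.

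On simulated data over 23580 probes for this comparison, the fit recovered 90% of probes changed by 1 log2 and 94% of those changed by 2, with 6.60% false calls. The changed probes were drawn at random over all probes, and their median absolute error was 0.03 log2. Mylpf, Acta1, Myl4 and Actc1 had an SE of 1.12, 0.73, 0.75 and 0.52 log2. The recovery therefore does not apply to them, and changes of that size could be missed in the uneven set. All member probes are named. Beyond them, genes are named as the 8 most like Mylpf and the 5 most like Acta2, and from the 14 marker and gene lists where a result turns on them. The members and lists were chosen with earlier results of these data known. Probes of a gene that passed the filter were averaged for lists and correlations. All 11 probe accessions matched RefSeq, and promoter windows are RefSeq's (GRCr8). Alternatives were the replicate block left out or random, other scaling, background correction, filters, the deposited values, the scan batch and each pair left out. Figures were drawn with matplotlib 3.10.9. The nicotine and imidacloprid cultures were not analysed here, and the sequence of the Acta1 probe is not reported here.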

Additional observations from a re-analysis of the deposited data

Results flagged for a closer look

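ACE 1 stood apart from the other 5 ACE arrays, by Dixon's criterion for 6 values, for 5 of the 22 groups of a probe and exposure that were examined, all of them genes of the uneven set. Chance flags about 5% of groups, and these 5 values come from a single culture and are not independent. Acta1 was at 9.856 log2 on ACE 1, with the other ACE arrays at 5.61 to 6.00. Actc1 was at 13.045 against 9.62 to 10.52, Mylpf at 12.753 against 7.12 to 7.71, and Myl4 at 9.992 against 6.54 to 6.94. Myl1 was at 8.845 against 1.36 to 3.23, where the other arrays were not well above background. The control array of the same pair was higher still for all 5 genes. Both arrays of pair 1 were read with the earlier version of the extraction software and were scanned apart from the other pairs, and the part of these factors in the values was not tested.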

How the results depend on the processing

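The count of 0 members past the adjusted threshold held under every alternative run, among them the fit with no replicate block (0), and with each pair left out it ranged from 0 to 0. The count at an unadjusted limma p under 0.05 was 0 with no replicate block, where only 0.34% of all probes were under it. It was also 0 without the filter on dim probes (12.5% of all probes) and with only probes well above background on all 12 arrays (18.6%). The 75th percentile shift (17.7%) and the deposited values (16.8%) gave 0 too. It was 4 with replicate as a random block (Myl4, Mylpf, Acta1 and Actc1, with unadjusted limma p-values of 0.0367, 0.0271, 0.0281 and 0.0205, against 16.8% of all probes), 1 with normexp background correction (Actc1, against 18.1% of all probes), and 1 by the exact signed-rank test and by exact sign-flip permutation (Actc1, against 11.6% of all probes with the same direction in 6 of 6 pairs), and 0 to 3 with a pair left out (3 without replicate 4: Actg2, Acta1 and Myl9, against 14.0% of all probes). Over all probes the unadjusted count was 3956, and 81 with no replicate block, against 3989 with a random block, where 5 probes passed the adjusted threshold.

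Mylpf, Acta1, Actc1 and Myl4 kept the direction of their difference under every alternative run. With a pair left out the differences ranged from -2.68 to -1.13 for Mylpf, -1.92 to -0.75 for Acta1, -1.37 to -0.63 for Actc1, -1.70 to -0.63 for Myl4 and -0.16 to -0.05 for Myl9. Signs reversed for Acta2, Actg2, Myl2 and Myl3. With the 75th percentile shift, which moved the median of all probes by -0.03, Acta2 was at -0.039 and Myl3 at -0.092. With normexp Acta2 was at -0.015 and Myl2 at -0.020. Within the scan batch of pairs 4 to 6 the Actg2 probes were at 0.40 and 0.65 and Myl3 at -0.11. With a pair left out, Acta2 ranged from -0.26 (without replicate 4) to 0.17, the Actg2 probes from -1.06 to 0.067 and from -1.04 to 0.17 (positive without replicate 3), Myl2 from -0.11 to 0.31 and Myl3 from -0.05 to 0.12. Myl3 was at -0.033 without replicate 3 and -0.048 without replicate 6. The cause was not tested. Dim signal limits Myl1 and Myl2, and 6 pairs limit every test.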

Other observations

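Pax7, the marker of satellite cells, was at 8.77 log2 on ACE 6 and at 1.59 to 5.67 on the other arrays with a value, and 6 of the 11 arrays with a value were well above background. Control 4 was the array on which both probes of Actg2 and that of Acta2 were lowest (5.93, 5.34 and 7.71). These genes were picked after their values were seen, and no test was made.

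Lmod2, which promotes assembly of the thin filament on which the muscle actins polymerise, was at 8.78, 9.81, 4.35, 5.15, 5.20 and 7.07 log2 on control 1 to 6 and at 7.69, 4.75, 3.50, 4.83, 4.98 and 4.68 on ACE 1 to 6. Tnni1, the slow skeletal inhibitory troponin, was at 9.98, 10.67, 4.21, 2.09, 1.85 and 7.84 in control and at 7.88, 2.24, 1.64, 1.83, 3.01 and 2.11 in ACE. Its signal was well above background only on control 1, 2, 3 and 6 and ACE 1, 5 of the 12 arrays, so that its other values are no measured levels and it was not tested. Lmod2 and Cacng1 were not well above background on ACE 6. Both Lmod2 and Tnni1 were high on the arrays with high Acta1. Cacng1, the gamma subunit of the skeletal muscle calcium channel, was at 7.49, 8.28, 5.08, 4.80, 6.26 and 5.81 in control and at 6.45, 5.25, 5.82, 4.87, 5.10 and 4.71 in ACE, and its 3 highest arrays were control 2, control 1 and ACE 1.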
